A study of Mus musculus with 6 samples.

Results

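The genes described are the bone morphogenetic protein (BMP) and transforming growth factor beta (TGF-beta) pathway genes of the mouse embryonic heart. The 41 symbols were taken by name from the known parts of the pathway, with earlier results of these data known. The list holds 11 ligands, 12 receptors, 8 Smad proteins, 6 antagonists or related modulators and 4 Id genes. Each symbol matched 1 of the 23290 entries of the authors' deposited table, and all 41 had been tested there.

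BMPs, TGF-betas and activins are secreted dimers that bring type II and type I receptor kinases together on the receiving cell. The type I receptor then phosphorylates a receptor-regulated Smad, which joins Smad4 and enters the nucleus, and among the genes switched on in this way are the Id genes and the inhibitory Smads. In the embryonic heart BMP signals act in cardiac progenitors, in growth of the trabeculated ventricle and in the atrioventricular canal and outflow tract, where BMP and TGF-beta ligands also help endocardial cells to become cushion mesenchyme.

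RNA came from whole hearts of C57BL/6 embryos at E10.5, 1 heart per sample. The 3 mutant hearts (Nkx2-5Cre/+,Casz1f/f) carried Casz1, which encodes a DNA-binding zinc finger protein, as 2 floxed copies, and Cre recombinase at 1 Nkx2-5 allele. Control hearts, also 3 in number (Nkx2-5+/+,Casz1f/+), carried 1 floxed Casz1 allele and no Cre, so the groups differ in Nkx2-5 as well as in Casz1. Cre from the Nkx2-5 locus acts in cells that express Nkx2-5, and which heart cells kept Casz1 was not measured here. The study asked which heart genes differ in expression when Casz1 is mutated.

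The table gives 1 FPKM value per genotype (fragments per kilobase of transcript scaled to library size), pooled over its hearts, so values of single hearts, their overlap between groups and the depth of each library are unknown here. All FPKM, log2 fold changes (mutant over control), p and q below are those of the authors' deposited table. The standard error (SE) follows from the fold change and its test statistic, and a gene is called where q is under 0.05. Casz1 itself read 6.61 FPKM in controls against 4.68 FPKM in mutants and Nkx2-5 read 143.0 and 82.9 FPKM, neither called. Myocardial markers were present in both genotypes with 0 of 8 called, from 8.59 FPKM for Ttn in mutants to 7496 FPKM for Myl7 in mutants. Of these 8 markers 6 lay below 0, from Nppa at 1755 and 888 FPKM (log2 -0.98, unadjusted p = 0.0123 in the authors' Cuffdiff test) to Tnnt2 at 1974.5 and 1973.6 FPKM, and Myl7 was the highest above 0 (log2 0.56). Macrophage and platelet markers summed to 97.8 and 42.3 FPKM, with 3 of 6 lower at an unadjusted p under 0.05 and Lyz2 called (16.9 and 1.91 FPKM). Most of that sum came from the platelet gene Pf4, at 60.5 and 28.8 FPKM. Of the 6, 5 lay below 0, among them the macrophage gene Csf1r (1.19 and 0.969 FPKM, not called), and Fcgr1 lay above 0 (0.101 and 0.126 FPKM). Markers of foregut and pharyngeal endoderm were higher in the mutant pool, with 6 of 9 called and a summed level of 2.66 FPKM in controls against 14.3 FPKM in mutants. Pharyngeal and splanchnic mesoderm markers summed to 12.8 and 30.3 FPKM, with 2 of 8 called, both higher. No listed marker stood at 0 in either genotype among those tested.

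None of the 41 genes was called in the mutant hearts by the authors' Cuffdiff test, where 0.422% of all 15387 tested entries were (0.305% higher and 0.117% lower). At an unadjusted p under 0.05 there were 3, or 7.32% of the 41, beside 3.17% of all tested entries. These were the ligand Tgfb3 and the antagonist Grem1, both with higher values in the mutants, and the activin subunit Inhbb, with a lower one; over all entries 1.99% were higher and 1.18% lower at this threshold. Grem1 and Inhbb lay under 1 FPKM in both genotypes, so Tgfb3 was the 1 gene of the 36 with at least 1 FPKM (2.78%, against 2.15% of all entries at that level). In whole hearts fewer cells of a type and less RNA per cell cannot be told apart.

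Higher and lower values were about equally common among the genes. Of the 41 log2 fold changes 21 were above 0 and 20 below, with a median of 0.03, beside a median of -0.02 over all tested entries, of which 45.3% were above 0. The median size of the change, sign ignored, was 0.165 on the log2 scale against 0.106 over all tested entries. Counting only those that reach 1 FPKM, these sizes were 0.135 and 0.0865.

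**Figure D1:**
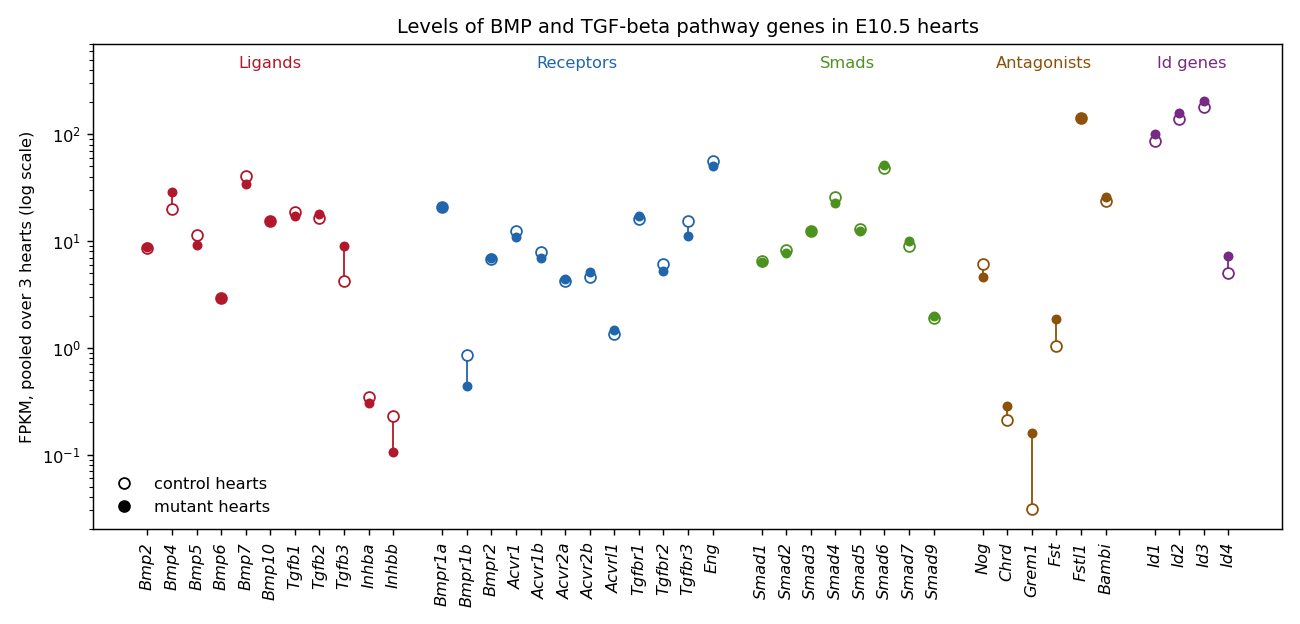
Level of each gene in control hearts (open circles) and mutant hearts (filled circles), as FPKM on a log axis, 1 pooled value per genotype, grouped by role. The longest lines join the values of Grem1, Inhbb, Tgfb3 and Bmpr1b, of which Tgfb3 alone lies above 1 FPKM.

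Tgfb3, a ligand expressed by cushion and outflow tract cells, showed the lowest p of the 41 genes. It read 4.21 FPKM in controls against 9.04 FPKM in mutants, 2.15-fold higher. On the log2 scale the difference was 1.10 (SE 0.308, and 0.50 to 1.71 as its 95% interval), at p = 0.000346 unadjusted and q = 0.0719 in the authors' Cuffdiff test. That p ranked 74 among the 15387 tested entries, and the highest p called was 0.00019, so Tgfb3 was just short of a call: at its SE a log2 change of 1.15 would have been called. Tgfb3 lies on chromosome 12 from 86056743 to 86079041 in mm10, on the minus strand. Of 2 GENCODE genes that share exonic bases with it, the one with the larger overlap, the opposite-strand transcript Gm48008, covers 7.60% of them. The sources used here do not state whether fragments were counted by strand.

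The other two TGF-betas had log2 fold changes near 0, and whether Tgfb3 differs from them in its change was not tested. Tgfb1, the isoform of endothelial and blood cells, read 18.8 FPKM in controls against 17.2 FPKM in mutants (log2 -0.13, SE 0.291). The summed level of macrophage and platelet markers, given above and mostly from Pf4, was lower in the mutant pool, and all 8 endothelial markers lay below 0. The part of such cells in the Tgfb1 value was not tested. Tgfb2, made by myocardium and cushion cells, read 16.3 and 17.8 FPKM (log2 0.13, SE 0.282). Per transcript length Tgfb3 was the lowest of these ligands in both genotypes, and its share of their summed FPKM was 10.7% in control and 20.6% in mutant hearts. Tgfb1 made up 47.9% and 39.0% of that sum. These shares are descriptions of pooled values and were not tested.

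Markers of foregut and pharyngeal endoderm and of pharyngeal and splanchnic mesoderm had higher values in the mutant pool, as did Tgfb3. So did 4 of 5 tested smooth muscle markers, a list that includes Tagln and Cnn1, both abundant in control hearts (333 and 131.6 FPKM). The values are those given above for endoderm and splanchnic mesoderm, and of 5 tested smooth muscle markers Lmod1 (4.12 and 14.2 FPKM) and Actg2 (1.37 and 7.72 FPKM) were called higher. The abundant smooth muscle marker Cnn1 lay the other way, at 131.6 and 96.0 FPKM, and was not called. All 9 endoderm markers had an unadjusted p under 0.05 in the authors' Cuffdiff test, and so did 7 of 8 pharyngeal and splanchnic mesoderm markers. Of all tested entries 3.17% did. These lists were chosen with earlier results of these data known, so the counts are no independent support. Of 7 cushion mesenchyme markers 0 were called, 6 lay above 0 and 1, Prrx1, had an unadjusted p under 0.05 (1.54 and 3.25 FPKM, log2 1.08). Their summed level, most of it from Vcan and Prrx2, was 235 and 241 FPKM. The part of such cells in the Tgfb3 value was not tested.

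Among the 6 BMP ligands, Bmp4 had the largest fold change and was not called. Bmp4, the ligand of the outflow tract and splanchnic mesoderm, read 20.0 FPKM in controls against 28.6 FPKM in mutants (log2 0.52, SE 0.285, 95% interval -0.04 to 1.07, unadjusted p = 0.0706 in the authors' Cuffdiff test). Bmp7, a broadly expressed ligand, was the most abundant of the 6 per length, at 40.9 and 33.9 FPKM (log2 -0.27, SE 0.283). Bmp5 read 11.4 and 9.23 FPKM (log2 -0.30, SE 0.304), though in GENCODE an antisense gene, Gm26903, covers 46.7% of its exonic bases. Bmp10, the ligand of trabecular myocardium that sustains cardiomyocyte growth, read 15.5 and 15.3 FPKM (log2 -0.02, 95% interval -0.68 to 0.65). Bmp2, which patterns the atrioventricular canal, stood at 8.52 and 8.83 FPKM and Bmp6 at 2.95 and 2.91 FPKM. The summed FPKM of the 6 ligands was 99.2 in control and 98.7 in mutant hearts. Within that sum Bmp4 held 20.1% in control and 28.9% in mutant hearts, and Bmp7 held 41.2% and 34.3%.

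Activin subunits were near the lower end of the measured range. Inhba, the activin A subunit, read 0.347 FPKM in controls against 0.302 FPKM in mutants. Inhbb, the activin B subunit, read 0.232 and 0.106 FPKM (log2 -1.12, SE 0.567, 95% interval -2.23 to -0.01). Its unadjusted Cuffdiff p was 0.0476 and its q 1.00, and adding 1 FPKM to both levels shrank the log2 difference to -0.15.

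**Figure D2:**
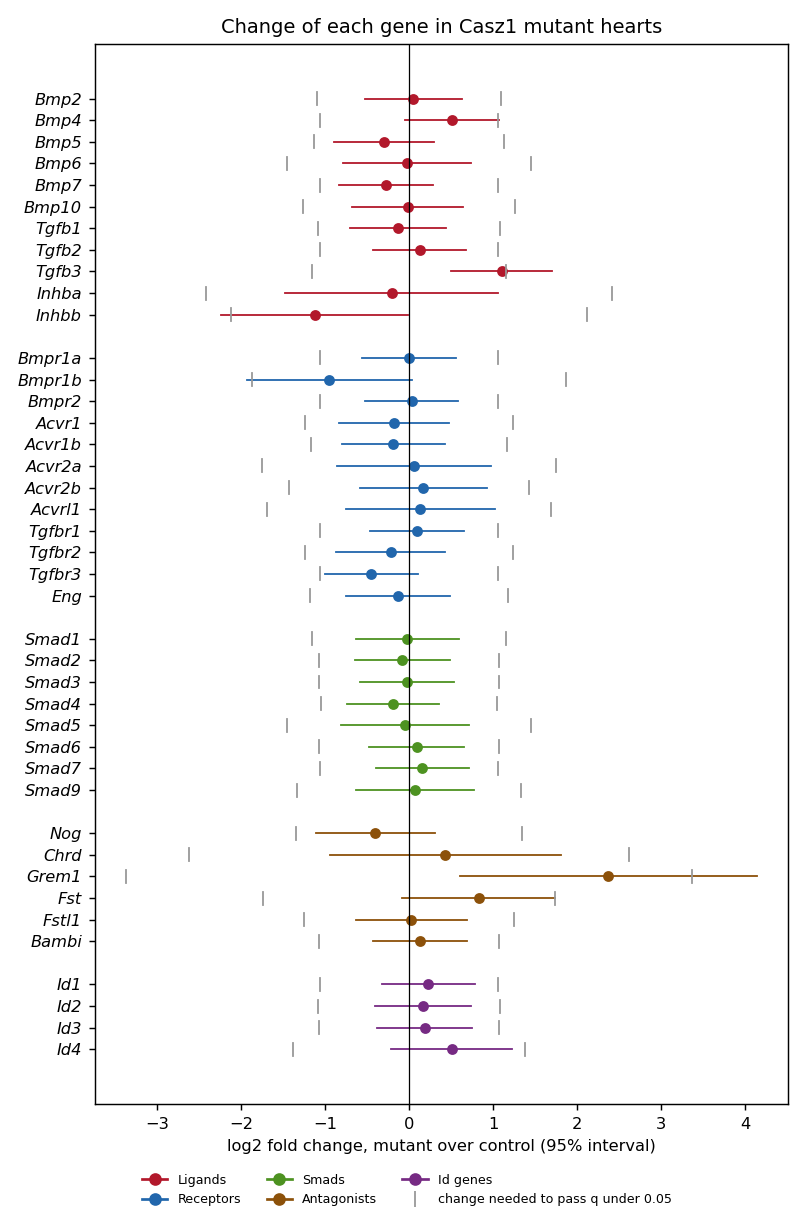
log2 fold change of each gene (points) with its 95% interval (lines, from the SE implied by the authors' test statistic), grouped by role. Grey ticks mark the size of change at which the gene would have been called, from 1.04 to 3.36 across genes, and no point lies beyond its tick.

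Most receptor levels were similar in both genotypes, with 9 of 12 intervals within a 2-fold change in either direction. In the authors' Cuffdiff test 0 of the 12 receptor genes reached an unadjusted p under 0.05, hence 0 were called. Of all tested entries only 3.17% reached it, so a count of 0 among so few genes says little. The median log2 fold change of the receptors was -0.07. Among type I receptors Bmpr1a (ALK3), the main BMP receptor of the myocardium, read 20.8 FPKM in both genotypes (95% interval of the log2 fold change -0.56 to 0.56). Tgfbr1 (ALK5), the TGF-beta type I receptor, read 15.9 FPKM in controls against 17.0 FPKM in mutants. Acvr1 (ALK2), which serves BMP signals in endocardium, read 12.3 and 10.9 FPKM, and the activin receptor Acvr1b (ALK4) read 7.92 and 6.96 FPKM. Acvrl1 (ALK1), the endothelial receptor, stood at 1.33 and 1.47 FPKM. Bmpr1b (ALK6) was the lowest of the receptors at 0.850 FPKM in controls against 0.440 FPKM in mutants, and its interval was wide (log2 -0.95, SE 0.501, 95% interval -1.93 to 0.03).

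Type II receptors were lower in summed level than type I. Bmpr2 read 6.86 FPKM in controls against 7.01 FPKM in mutants, Tgfbr2 read 6.06 and 5.21 FPKM, and the activin receptors Acvr2b and Acvr2a read 4.56 and 5.14 FPKM and 4.21 and 4.39 FPKM. Their summed FPKM was 21.7 in each genotype, beside 59.2 and 57.6 for the type I receptors. No pair of neighbours in this order was tested against each other. Log2 fold changes of the type II receptors ran from -0.22 to 0.17, and all 4 intervals stayed within a 2-fold change in either direction.

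Both co-receptors had lower values in the mutants, short of any threshold. Tgfbr3 (betaglycan), which presents TGF-beta2 and takes part in cushion formation, read 15.3 FPKM in controls against 11.2 FPKM in mutants (log2 -0.45, SE 0.283, unadjusted p = 0.112 in the authors' Cuffdiff test). Eng (endoglin), the endothelial co-receptor, was the most abundant receptor per length at 55.9 and 51.0 FPKM (log2 -0.13, SE 0.316). Endothelial and endocardial markers lay below 0 as well, in 8 of 8 genes with log2 fold changes from -0.43 to -0.11 and a summed level of 215 FPKM in controls against 187 FPKM in mutants, and their part in the Eng value was not tested.

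The Smads had similar levels in both genotypes. Of 8 genes 0 were called and 0 had an unadjusted Cuffdiff p under 0.05, beside 3.17% of all tested entries. Their log2 fold changes ran from -0.19 to 0.16. All 8 intervals lay within a 2-fold change, and the summed FPKM was 126 in each genotype. The BMP Smads Smad5, Smad1 and Smad9 read 12.9, 6.48 and 1.89 FPKM in control and 12.5, 6.40 and 1.98 FPKM in mutant hearts. For the TGF-beta and activin Smads the values were 12.5 and 12.3 FPKM for Smad3 and 8.21 and 7.77 FPKM for Smad2. Smad4, the shared partner, read 26.1 and 22.9 FPKM (log2 -0.19, SE 0.280).

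Smad6, an inhibitory Smad that BMP signals induce, was the most abundant Smad per length. It read 48.8 FPKM in controls against 52.0 FPKM in mutants (log2 0.09, 95% interval -0.47 to 0.65) and made up 38.8% and 41.3% of the summed Smad level. Smad7, which dampens both branches, read 8.95 and 9.99 FPKM (log2 0.16, 95% interval -0.40 to 0.72).

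**Figure D3:**
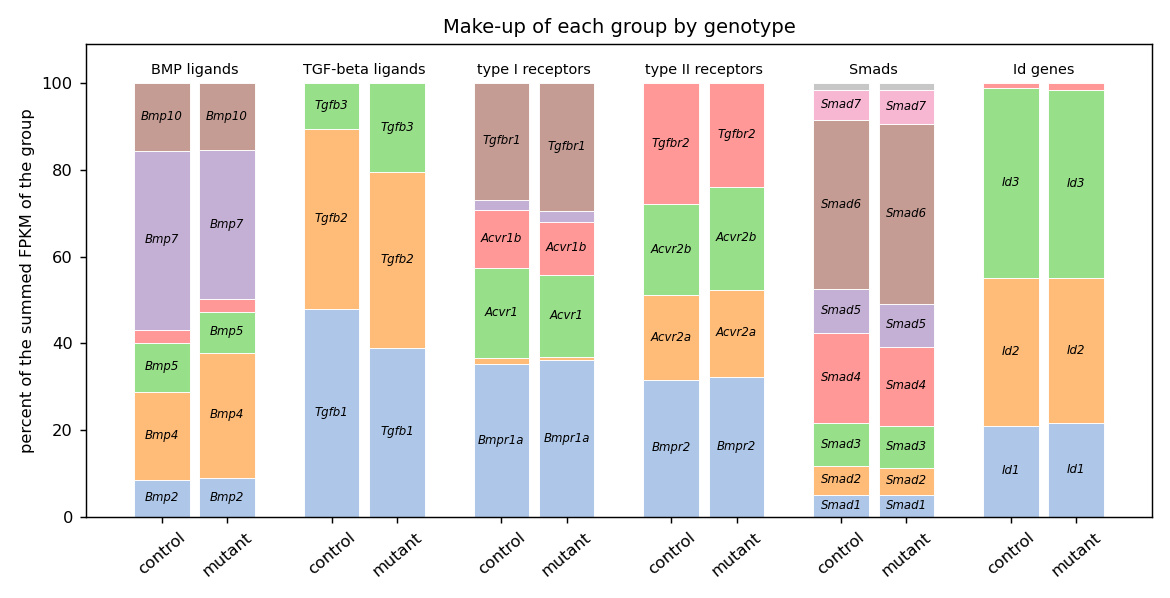
Share of each gene in the summed FPKM of its group, in percent, for control and mutant hearts; thin unlabelled bands are Bmp6, Bmpr1b, Acvrl1, Smad9 and Id4. The Tgfb3 band widens from 10.7% to 20.6% and the Bmp4 band from 20.1% to 28.9%, while type II receptor, Smad and Id bands differ by at most a few points.

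Antagonists spanned the widest range of levels, and the difference with the lowest p among them was at the bottom of it. Grem1 (gremlin), a secreted BMP antagonist, read 0.0308 FPKM in controls against 0.160 FPKM in mutants. On the log2 scale the difference was 2.37 (SE 0.902, 95% interval 0.61 to 4.14; unadjusted p = 0.00851, q = 0.595 in the authors' Cuffdiff test), and with pseudocounts of 0.1 and 1 FPKM it was 0.99 and 0.17. Both levels lie near the floor of the table, and the splanchnic mesoderm marker Foxf1, at 0.909 and 3.75 FPKM, was called higher in the same pool; its part in the Grem1 value was not tested. Fst (follistatin), which binds activins, read 1.04 and 1.85 FPKM (log2 0.83, SE 0.466, unadjusted p = 0.0751 in the authors' Cuffdiff test). Chrd (chordin) read 0.213 and 0.288 FPKM.

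The more abundant antagonists were not called either. Nog (noggin), a BMP antagonist, read 6.09 FPKM in controls against 4.62 FPKM in mutants (log2 -0.40, SE 0.362). Fstl1, a secreted follistatin-like glycoprotein of the epicardium and mesenchyme, was the most abundant of the group at 140 and 143 FPKM (log2 0.03, SE 0.335). Bambi, a kinase-less decoy receptor and itself a BMP target, read 23.5 and 25.7 FPKM (log2 0.13, SE 0.286).

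The start region of Grem1 is shown because Grem1 was the 1 antagonist with an unadjusted p under 0.05. RefSeq windows of 300 bases, from 250 before to 50 after the start (GRCm38.p6), were at hand for 29 of the 41 genes, and Tgfb3 is not among them. The window of Grem1 lies at chr2:113758599-113758898 on the minus strand, and capitals mark the Smad box (GTCTG or its reverse complement CAGAC) and the palindrome GGCGCC, a BMP-Smad type site; the motifs do not overlap each other.
Grem1: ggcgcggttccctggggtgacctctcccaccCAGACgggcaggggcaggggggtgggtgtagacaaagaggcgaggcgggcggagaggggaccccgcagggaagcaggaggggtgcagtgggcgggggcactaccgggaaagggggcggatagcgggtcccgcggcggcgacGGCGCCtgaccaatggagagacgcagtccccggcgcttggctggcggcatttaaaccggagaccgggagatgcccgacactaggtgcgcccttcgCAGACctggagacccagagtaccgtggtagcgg

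A Smad box occurred 2 times and GGCGCC 1 time in the Grem1 window. Over all 32851 windows of this length that RefSeq gives, 49.6% held a Smad box on either strand and 11.9% held GGCGCC. Of the 34 windows of the 29 pathway genes at hand 14 (41.2%) held a Smad box and 11 (32.4%) held GGCGCC. An E-box (CANNTG) was held by 15 (44.1%), beside 72.3% of all windows. The windows were not matched for base composition (the Grem1 window is 70.7% G or C), and no difference between these shares was tested. A match is a run of letters in the window and says nothing of binding.

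The Id genes, direct targets of BMP-activated Smads, were the most abundant group, and all 4 had slightly higher values in the mutants without passing. They encode helix-loop-helix proteins that have no DNA-binding region and hold back E proteins. Id3 read 179 FPKM in controls against 204 FPKM in mutants (log2 0.19, SE 0.287), Id2 read 140 and 157 FPKM (log2 0.17, SE 0.289) and Id1 read 86.1 and 101 FPKM (log2 0.23, SE 0.283). Id4 was far lower per length, at 5.07 and 7.20 FPKM (log2 0.51, SE 0.369, unadjusted p = 0.169 in the authors' Cuffdiff test). The locus given for Id4 starts at 48044231, before the GENCODE gene at 48261228. Exons of Id4 share bases with 2 other genes, whose reads may be counted in. The median log2 fold change of the 4 Id genes was 0.21. In the authors' Cuffdiff test 0 of 4 had an unadjusted p under 0.05. Of all tested entries only 3.17% did, so a count of 0 among so few genes says little. Each interval included 0, and those of Id1, Id2 and Id3 stayed within a 2-fold change. Their order Id3, Id2, Id1, Id4 and their shares were the same in both genotypes within 1 point, with Id3 at 43.6% and 43.5% of the summed level.

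Start regions of the Id genes are given because these genes read out the pathway; the windows of Id2, Id3 and Id4 were in the RefSeq table (GRCm38.p6). They lie at chr12:25096043-25096342 on the minus strand, chr4:136143572-136143871 on the plus strand and chr13:48260866-48261165 on the plus strand, with the same motifs in capitals.
Id2: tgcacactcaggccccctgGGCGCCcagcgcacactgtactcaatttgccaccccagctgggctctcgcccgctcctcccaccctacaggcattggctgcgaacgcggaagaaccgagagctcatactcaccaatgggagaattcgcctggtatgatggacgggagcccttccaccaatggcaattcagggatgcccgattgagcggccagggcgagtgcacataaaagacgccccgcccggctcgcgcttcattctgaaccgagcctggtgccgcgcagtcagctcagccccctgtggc
Id3: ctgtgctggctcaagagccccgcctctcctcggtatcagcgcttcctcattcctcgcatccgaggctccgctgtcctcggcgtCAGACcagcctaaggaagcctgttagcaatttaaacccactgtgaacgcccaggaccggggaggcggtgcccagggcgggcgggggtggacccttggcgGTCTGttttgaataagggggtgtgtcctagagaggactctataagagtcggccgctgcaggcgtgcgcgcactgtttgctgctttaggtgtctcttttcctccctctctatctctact
Id4: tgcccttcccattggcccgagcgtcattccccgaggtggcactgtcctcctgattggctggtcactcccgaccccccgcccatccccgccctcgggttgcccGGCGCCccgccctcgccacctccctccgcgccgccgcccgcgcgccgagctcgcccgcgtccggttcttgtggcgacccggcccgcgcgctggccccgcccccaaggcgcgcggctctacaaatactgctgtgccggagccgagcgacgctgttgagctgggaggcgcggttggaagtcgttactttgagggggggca

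The Id windows differed in what they held. That of Id3 had 2 Smad boxes and 0 copies of GGCGCC, while those of Id2 and Id4 each had 1 copy of GGCGCC and 0 Smad boxes. Their log2 fold changes, given above, were 0.19 for Id3, 0.17 for Id2 and 0.51 for Id4.

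**Figure D4:**
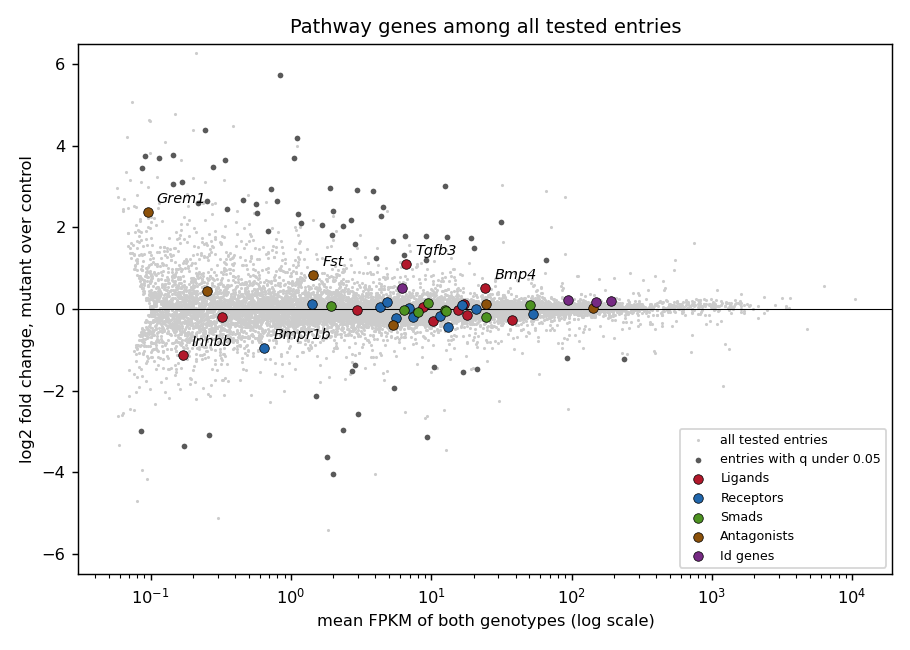
log2 fold change (mutant over control) against mean FPKM of both genotypes on a log axis, for tested entries (light grey; 6 of the 15301 with a finite fold lie outside the axis range), entries with q under 0.05 (dark grey) and the pathway genes by role (colours). Most pathway genes lie in the dense band around 0, and Grem1 and Inhbb lie in the wide low-expression end.

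The wider pathway, 106 further genes, held 2 calls in the authors' Cuffdiff test, 1 higher and 1 lower, among the 90 tested (the background is 0.422% of all entries). Tdgf1 (Cripto), a membrane co-receptor for Nodal that also binds TGF-beta family ligands, rose to 6.76 FPKM in mutants against 0.907 FPKM in controls, a log2 fold change of 2.90 (SE 0.449) with q = 1.78e-07 in the authors' Cuffdiff test. It lies on chromosome 9 from 110939608 to 110946158, and GENCODE lists pseudogene copies of it elsewhere (Tdgf1-ps1 and Tdgf1-ps2), so its level is uncertain to the extent that the copies share reads. Pcsk6 (PACE4), a convertase that cleaves BMP and Nodal precursors, fell to 2.24 FPKM in mutants against 8.53 FPKM in controls. Its log2 fold change was -1.93 (SE 0.329), with q = 5.9e-06 in the authors' Cuffdiff test. Adding 1 FPKM to each level gave them log2 differences of 2.03 and -1.55.

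Of the 10 further receptors and co-receptors Tdgf1 was the 1 called; Dcbld2 read 24.1 FPKM in each genotype, and the BMP co-receptor Hjv (Hfe2) read 8.27 FPKM in controls against 9.15 FPKM in mutants. Nodal, the main ligand of Tdgf1, read 0.0127 and 0.0553 FPKM and was marked too low for a test. Of 22 other ligands 13 were tested and 0 called, with Inha, the inhibin subunit, highest at 6.96 and 6.64 FPKM and Gdf11 next at 4.99 and 4.76 FPKM.

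Of 16 tested genes of ligand latency and processing Pcsk6 was the 1 called, and the median log2 fold change was -0.11. Furin, the convertase with overlapping substrates, read 33.8 FPKM in controls against 34.5 FPKM in mutants (log2 0.03, SE 0.266), and Pcsk5 read 7.05 and 6.15 FPKM. Emilin1, an extracellular inhibitor of TGF-beta maturation, read 39.6 and 37.6 FPKM, and the latent TGF-beta binding proteins Ltbp1 and Ltbp4 read 20.2 and 18.5 FPKM and 14.5 and 13.4 FPKM.

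Of 9 tested further antagonists 0 were called. Sostdc1, a BMP and Wnt antagonist of epithelia, read 0.130 FPKM in controls against 0.687 FPKM in mutants (log2 2.40, SE 0.710, unadjusted p = 0.000714, q = 0.122 in the authors' test by Cuffdiff), or 0.58 on the log2 scale with a pseudocount of 1 FPKM. In the same pool the epithelial marker Epcam read 0.971 and 4.42 FPKM and was called higher, and its part in the Sostdc1 value was not tested. Twsg1, which modulates chordin, read 19.8 and 20.8 FPKM and Bmper read 5.18 and 5.13 FPKM. Smad cofactors and regulators gave 0 calls among 19 genes, at log2 fold changes from -0.23 to 0.52. None had an unadjusted p under 0.05, beside 3.17% of all tested entries. The Smad phosphatase Ppm1a read 26.1 FPKM in each genotype, and the corepressor Tgif2 read 23.1 and 23.3 FPKM.

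Genes known to respond to the pathway also gave 0 calls. Of 10 BMP response genes 7 lay above 0, with a median log2 fold change of 0.25. The homeobox genes Dlx5 and Dlx3 had unadjusted Cuffdiff p of 0.0112 and 0.021, at 0.294 and 1.16 FPKM and at 0.0844 and 0.293 FPKM. Dlx5 is also among the neural crest and neuron markers, of which 3 of 6 tested had an unadjusted p under 0.05 (Tfap2b, Dlx2 and Dlx5 itself) and 0 were called. Sox10, at 0.344 and 0.331 FPKM, was the 1 below 0. Their summed level was 15.4 and 21.3 FPKM, most of it from Tubb3 (13.7 and 17.3 FPKM). The part of such cells in the Dlx values was not tested. Other BMP response genes were more abundant in these hearts than Dlx5 and Dlx3. The GATA factor Gata4 read 80.3 and 74.4 FPKM and the T-box factor Tbx20 read 48.0 and 47.4 FPKM. Tbx2, a BMP-induced factor of the atrioventricular canal, read 9.95 and 12.1 FPKM. Msx2, another BMP target, read 7.96 and 10.3 FPKM (log2 0.37, SE 0.318).

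Among 13 tested TGF-beta response genes 0 were called and the median log2 fold change was 0.10. Tagln (transgelin), a smooth muscle gene that TGF-beta induces, read 333 FPKM in controls against 767 FPKM in mutants (log2 1.20, SE 0.431, unadjusted p = 0.00526, q = 0.411 in the authors' test by Cuffdiff). It was the 1 of the 13 with an unadjusted p under 0.05. Fn1, which encodes fibronectin, read 208 and 205 FPKM, Ccn2 (Ctgf) read 21.8 and 17.4 FPKM and Postn (periostin) read 24.5 and 16.2 FPKM (log2 -0.60, SE 0.332). Tagln is also 1 of the 5 tested smooth muscle markers, and it carries most of their summed level of 471 FPKM in controls and 885 FPKM in mutants. Without Tagln that sum was 137 and 119 FPKM, although Lmod1 and Actg2 were called higher. The contractile gene Cnn1 read 131.6 and 96.0 FPKM (log2 -0.45, not called). On chromosome 9 the locus given for Cnn1 runs from 22055460 to 22389206 and that for Tagln from 45863691 to 45936058. Whether other genes within these loci add to the values was not checked. Myh11, another of the 5, read 0.326 FPKM in controls against 0.931 FPKM in mutants and was not called. Which cells gave the Tagln value, smooth muscle or others, was not tested.

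**Figure D5:**
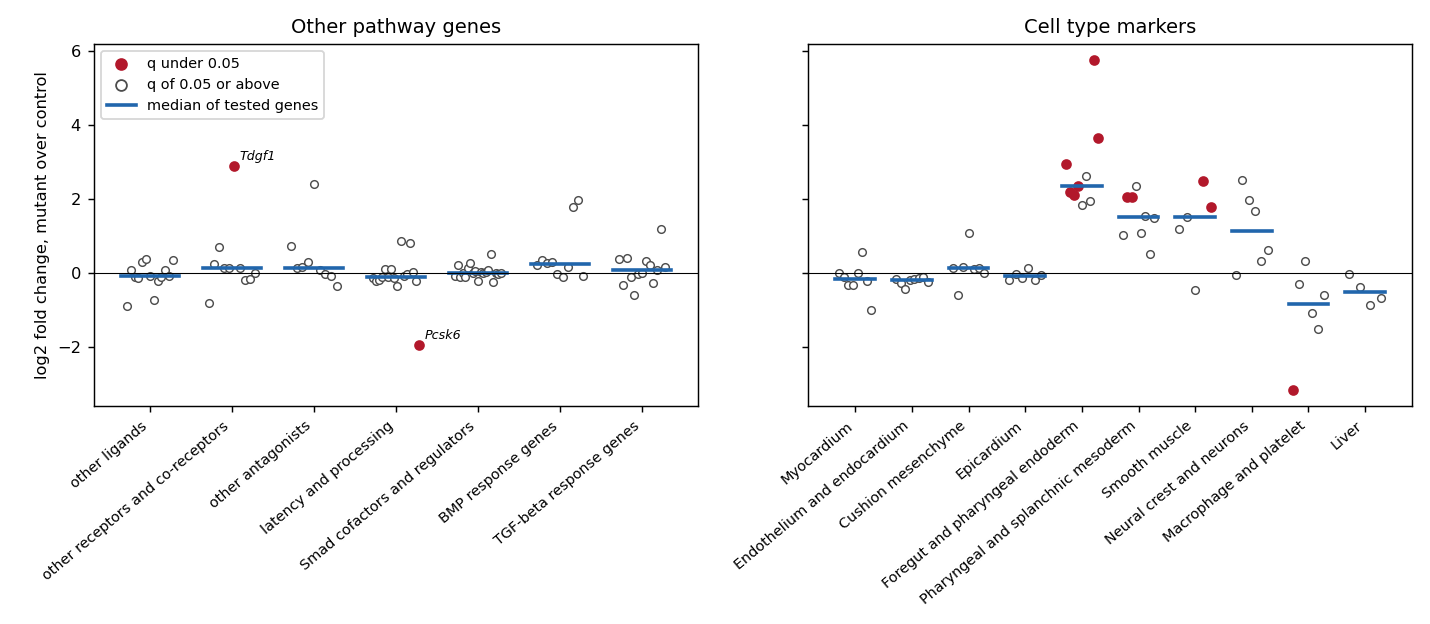
log2 fold change (mutant over control) of tested genes in 7 further pathway lists (left) and 10 marker lists (right); filled points have q under 0.05, open points do not, and bars are medians. On the left only Tdgf1 and Pcsk6 are filled; on the right the filled points are 6 endoderm, 2 pharyngeal and splanchnic mesoderm and 2 smooth muscle markers above 0 and the macrophage gene Lyz2 below 0.

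The precision of the table sets what a missing call can show here. The implied SE of the 41 genes ran from 0.280 to 0.902 (median 0.310), so a log2 change of at least 1.04 would have been needed for any of them to be called, and 1.16 at the median. For 29 of the 41 genes, among them all 8 Smads and 9 of 12 receptors, the 95% interval lay within a 2-fold change in either direction; smaller differences were not detectable.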

How the data were processed

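RNA was sequenced from 6 hearts, 3 per genotype. The submitters' processing notes name Cufflinks 2.1.1 with Cuffdiff, the aligner TopHat2 2.0.8 and the build mm10. The authors deposited FPKM per gene and genotype (1 value each, 0 columns per heart), per the file headers, so no fit over hearts could be run and depth is unknown. Normalisation, dispersion and strand settings are not given in the sources used here. The p-values and q-values are those the authors deposited from Cuffdiff across all genes tested (15387 entries), and a q under 0.05 was the threshold. The log2 fold changes deposited by the authors match the FPKM ratio, and p the normal tail of the test statistic, for 15301 entries, so the SE is the fold change divided by that statistic, and 95% intervals assume a normal distribution. The change needed for a call is the normal quantile of the highest called p times the SE.

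Entries were named by RefSeq accession (GRCm38.p6 table, then GENCODE vM21), 23125 of 23290, and the used entry of a gene was the tested one with the highest mean FPKM. All 41 loci overlapped the GENCODE gene of the same symbol. Some loci run past that gene, as for Id4, Acvr2a, Eng, Chrd and Bmp4, and the locus given for Id4 spans an overlapping noncoding gene. Named in the text are all 41 genes, genes of other lists with a q, or else an unadjusted p, under 0.05, and the 2 with the highest FPKM of each list; other genes were chosen after their values were seen. Markers are named where a value moves with a gene described or goes against its own list, and not every marker the rule takes is printed. The members and lists were chosen with earlier results of these data known. Code was tested on simulated data. Software was scipy 1.17.1, pandas 2.3.3 and matplotlib 3.10.9 under Python 3.11.15.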

Additional observations from a re-analysis of the deposited data

How the results depend on the processing

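The count of 0 called genes held at a q threshold of 0.01, with q recomputed over all tested entries, and with q recomputed over entries of at least 1 or 5 FPKM, where Tgfb3 had an adjusted p of 0.0845 and 0.109. At a q threshold of 0.1 it became 1, Tgfb3. The 3 genes with an unadjusted p under 0.05 became 1 at a minimum of 1 FPKM and 1 at a minimum of 5 FPKM, Tgfb3 both times. In the wider pathway the 2 calls were Tdgf1 and Pcsk6 under each of these settings, and the 6 genes with an unadjusted p under 0.05 became 4 at a minimum of 1 FPKM and 3 at a minimum of 5 FPKM. The median log2 fold change of the 41 genes lay between -0.00 and 0.05 under the pseudocounts, filters and centring. Pseudocounts of 0.1 and 1 FPKM moved 1 and 3 of the 41 fold changes by more than their SE (Grem1, then also Inhbb and Bmpr1b), and centring by -0.02 changed the sign of Bmp10 and Bmpr1a only. Each gene had 1 entry, so summing entries was not run. Leaving out replicates was not run, since the table holds no value per heart. No paired analysis was possible because the table pools the hearts of each genotype.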

Other observations

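The genes next to Tgfb3, Grem1 and Inhbb with at least 1 FPKM, 3 on each side, held no call in the Cuffdiff test. Beside Tgfb3 the ciliary gene Ift43, 3.52 kb away, read 49.9 FPKM in controls against 60.2 FPKM in mutants (log2 0.27), and Ttll5, 2.98 kb away on the other side, read 4.31 and 3.68 FPKM (log2 -0.23). The nearest such gene to Grem1, Arhgap11a at 72.8 kb, read 13.9 and 13.2 FPKM (log2 -0.07). Near Inhbb, Ralb read 59.7 and 58.4 FPKM and the hedgehog effector Gli2 read 1.25 and 2.02 FPKM (log2 0.69, unadjusted p = 0.0635 in the authors' Cuffdiff test).

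Some pathway genes gave no usable value. Gdf1 carried a failed status at 1.57 and 2.01 FPKM, and Fstl3 and Acta2 a status for too many fragments. Exons of 14 of the 41 genes share bases with another gene in GENCODE, and for those genes reads of the partner may be counted in.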
